A study of Homo sapiens with 24 samples.

Results

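Open chromatin was compared between RES-A cells given dihydrotestosterone (DHT) together with enzalutamide (ENZ) and RES-A cells given the solvent DMSO, to ask what is left of the androgen response while the drug is present. The comparison rests on 6 of the 24 samples of the series, 3 replicates of each treatment, chosen by their titles. RES-A is a derivative of the prostate cancer cell line LNCaP, made resistant to ENZ by long drug exposure. Before treatment, RES-A cultures spent 3 days in RPMI with 5% charcoal-stripped serum, which is poor in androgens, and with 10 µM ENZ. The RES-A DHT+ENZ group then received 10 nM DHT and 10 µM ENZ for 18 h, and the RES-A DMSO group received DMSO for 18 h. The DMSO cells had therefore also been in ENZ before the 18 h, and the groups differ by both agents at once. The parental LNCaP samples read below had the same 3 days in culture, but without ENZ. They then received the same doses of DHT, ENZ or both, or DMSO, for 18 h. The replicates were biological replicates of 1 resistant derivative, so their spread says nothing about other resistant lines.

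DHT is a potent androgen, formed from testosterone in the prostate, and androgens drive the growth of most prostate cancers. The response of prostate cells to androgen includes the displacement of nucleosomes at enhancers. ENZ is an antiandrogen drug, given in prostate cancer to counter the action of androgens. FAIRE-seq, the assay used here, shears cross-linked chromatin, recovers the DNA that is not held by nucleosomes and sequences it, so that a peak marks a stretch of open chromatin. In a bulk assay, a site that is open in more cells and a site that is more open in each cell cannot be told apart.

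Each sample had its own list of peaks. The 6 lists held between 184636 and 216942 peaks, and those of the whole series between 73254 and 275774. Fold enrichment, the deposited ratio of the reads stacked at a peak to the number expected there, had medians from 3.78 (RES-A DHT+ENZ replicate 3) to 5.00 (RES-A DHT+ENZ replicate 1) in the 6 lists. The genome-wide background derived from the lists, a proxy for depth, ran from 2.18 to 3.76 reads per base in the 6 samples and was lowest and highest in these same DHT+ENZ replicates. Whether the cells carry the markers of their line was not checked, because genes were not analysed here.

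No difference in the number of peaks was detectable between DHT+ENZ and DMSO. The RES-A DHT+ENZ samples had 184636, 192487 and 216942 peaks and the RES-A DMSO samples 194848, 204397 and 199686. The DMSO values lay inside the range of the DHT+ENZ values. The means were 198022 ± 16849 and 199644 ± 4775 (SD, n = 3 each), a difference of -1622 peaks (two-sided exact permutation test, p = 0.9, where 0.1 is the smallest possible). The sign of the difference turned without RES-A DHT+ENZ replicate 1 (5071), RES-A DHT+ENZ replicate 2 (1145) or RES-A DMSO replicate 2 (755).

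The strongest sites were less alike across the treatments than within them. For each sample the 50000 peaks with the highest −log10 p were taken as its top-ranked peaks, and the overlap of any pair of samples was given as the Jaccard index, the base pairs shared over the base pairs covered by either. Pairs within the DHT+ENZ group had indices from 0.647 to 0.659, pairs within the DMSO group from 0.662 to 0.676, and pairs across the groups from 0.619 to 0.633. Every pair across the groups was thus less alike than every pair within a group. The within-group mean exceeded the between-group mean by 0.0328 (two-sided exact permutation test, p = 0.1, the smallest that 3 samples against 3 allow). Beside these values, DHT+ENZ samples shared on average 0.638 with RES-A samples given ENZ alone and 0.595 with RES-A samples given DHT alone, while DMSO samples shared 0.538 with DHT alone.

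More regions had a top-ranked peak in every DHT+ENZ sample and in no DMSO sample than the reverse. Over the 69250 merged regions of the top-ranked peaks of the 6 samples (overlap of at least 1 bp), 1245 regions, or 1.8%, had a top-ranked peak in 3 of 3 DHT+ENZ samples and in 0 of 3 DMSO samples. The reverse held for 600 regions, or 0.866%. A further 32972 regions, or 47.6%, had a top-ranked peak in all 6 samples. Every sample had the same number of top-ranked peaks, and each had one at 71.8% or 71.9% of the 69250 regions. The 1245 and 600 regions therefore count changes of rank shared by all 3 replicates, and not a net gain of sites. The opened regions had a median length of 444 bp and the closed regions of 381 bp, beside 420 bp for all merged regions.

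Nearly all of these sites had a peak of some rank in both groups. Of the 1245 opened regions, 1218 had a peak outside the top ranks in all 3 DMSO samples, 24 in 2 of them, 2 in 1 and 1 in none. All 600 closed regions still had a peak outside the top ranks in all 3 DHT+ENZ samples. The opened regions had a top-ranked peak at 88.5%, 88.0% and 88.4% in the RES-A DHT samples and at 32.9%, 26.4% and 32.3% in the RES-A ENZ samples, which took no part in the choice. At the closed regions these shares were 24.2%, 21.2% and 24% with DHT and 54.0%, 53.7% and 57.3% with ENZ. Over all 69250 merged regions they ran from 65.4% to 66.8% with DHT and from 69.6% to 70.9% with ENZ. The balance of directions depended on rank: with all deposited peaks used in place of the top-ranked ones, 1488 regions opened and 1884 closed. Leaving 1 sample out asked for agreement of only 2 samples in its group and of all 3 in the other. This gave between 1122 and 1246 closed regions in place of 600, for whichever of the 6 was left out. Without RES-A DHT+ENZ replicate 3 it gave 1918 opened regions.

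The single opened region without a deposited peak of any rank in DMSO lay on chromosome 18 at chr18:11976564-11976923 (hg19). Its fold enrichment was 5.73, 5.75 and 6.17 with DHT+ENZ and 8.67, 7.42 and 8.46 with DHT alone. With ENZ alone it was 3.44, 3.98 and 4.17. All 3 ENZ values lay below all 3 DHT+ENZ values, which lay below all 3 DHT values. In parental LNCaP the region had a peak in each of the 3 DMSO samples, with fold enrichments of 5.60, 4.90 and 3.78.

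The strength of peaks was then tested region by region. All deposited peaks of the 6 samples merged into 369706 regions, of which 114984 had a peak in every sample and were tested with limma on the log2 fold enrichment after quantile normalisation. At an adjusted p below 0.05, 914 regions, or 0.795%, were higher with DHT+ENZ than with DMSO, and 119 regions, or 0.103%, were lower. The increased regions had a median log2 difference of 0.81, which is a 1.76-fold change, with a range of 0.42 to 1.56. The decreased regions had a median of -0.71 and a range of -1.05 to -0.36. Over all tested regions the median was -0.01. A log2 difference of 1 or more in size was reached by 151 of the 914 increased regions and by 1 of the 119 decreased regions. Of the 1216 tested regions that overlapped an opened region, 413 (34.0%) were called higher. Of the 600 that overlapped a closed region, only 29 (4.8%) were called lower. The same 6 samples served both rules.

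**Figure D1:**
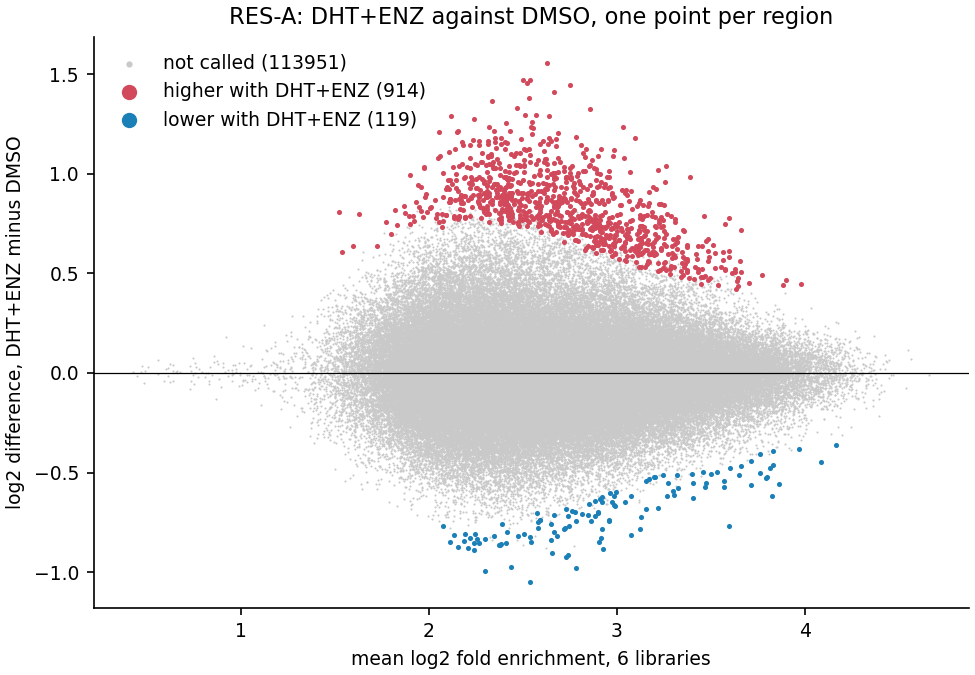
Each point is 1 of the 114984 tested regions, with its mean log2 fold enrichment over the 6 samples on the x axis and the log2 difference, RES-A DHT+ENZ minus RES-A DMSO, on the y axis. The 914 regions called higher (red) reach 1.56, and the 119 called lower (blue) reach -1.05.

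Fewer regions were called when any sample was left out. The count of increased regions was 356, 383 and 518 without RES-A DHT+ENZ replicates 1, 2 and 3, and 643, 481 and 493 without RES-A DMSO replicates 1, 2 and 3. The count of decreased regions was 84, 68 and 61, and 51, 39 and 22, in the same order. Increased regions outnumbered decreased ones in each of these fits. On pileup in place of fold enrichment 3023 regions were higher and 509 lower, and on −log10 p 2285 and 336. Without normalisation 113 regions were higher and 14 lower, and the median log2 difference over all 114984 regions was -0.09. As deposited, all DHT+ENZ values lay above all DMSO values at 4437 of these regions and below them at 13401. Quantile normalisation gives all samples the same distribution, so the balance of directions is relative to it. In another fit, all 174258 regions with a peak in at least 3 of the 6 samples were tested, with missing peaks set to the lowest fold enrichment. No region passed there (0 higher and 0 lower by limma, with 17804 at an unadjusted p below 0.05).

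The largest increase was found on chromosome 1, in a region of 435 bp at chr1:212306613-212307047. Its fold enrichment was 5.22, 2.72 and 3.38 with DMSO and 12.8, 9.68 and 8.78 with DHT+ENZ. The log2 difference was 1.56 ± 0.20 (SE, n = 3 per group, limma adjusted p = 0.000696). DHT alone gave 13.5, 11.3 and 11.5 and ENZ alone 4.49, 4.68 and 4.01, so that the DHT+ENZ samples overlapped the DHT samples and lay above every RES-A sample without androgen. The parental LNCaP DMSO samples, at 11.8, 11.0 and 7.91, overlapped them.

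The region next in size lay on chromosome 4, at chr4:122520065-122520638. Its fold enrichment was 3.49, 3.11 and 3.79 with DMSO, 11.1, 8.49 and 8.05 with DHT+ENZ, 10.1, 9.36 and 8.15 with DHT alone, and 7.03, 5.48 and 5.04 with ENZ alone. The DHT+ENZ and DHT values overlapped, and the ENZ values lay between the DMSO and DHT+ENZ values. The log2 difference was 1.47 ± 0.18 (SE, n = 3 per group, limma adjusted p = 0.000321).

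On chromosome 13, at chr13:29088014-29088426, fold enrichment was 3.76, 3.11 and 3.79 with DMSO and 11.9, 8.55 and 7.98 with DHT+ENZ. ENZ alone gave 5.19, 3.96 and 3.22, which overlapped the DMSO values, and DHT alone gave 13.2, 10.2 and 11.2. The log2 difference between DHT+ENZ and DMSO was 1.47 ± 0.18 (SE, n = 3 per group, limma adjusted p = 0.000349).

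On the X chromosome, at chrX:131194963-131195311, the DMSO samples had fold enrichments of 2.95, 3.78 and 4.01 and the DHT+ENZ samples of 11.7, 8.68 and 7.67, a log2 difference of 1.46 ± 0.18 (SE, n = 3 per group, limma adjusted p = 0.000565). ENZ alone gave 7.64 and 6.39 in replicates 1 and 2 and no listed peak in replicate 3. Both listed ENZ values lay between the DMSO and the DHT+ENZ values. On chromosome 11, at chr11:32350893-32351492, the values were 4.29, 4.67 and 3.57 with DMSO, 11.4, 11.1 and 9.87 with DHT+ENZ and 13.4, 11.0 and 13.0 with DHT alone. ENZ alone gave 7.94, 6.02 and 4.48, of which 2 lay above every DMSO value and all below every DHT+ENZ value. Its log2 difference of 1.45 ± 0.17 (SE, n = 3 per group) had the smallest adjusted p of these 5 regions (limma, 0.000227).

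The decreases were smaller. The largest was at chr19:4547239-4547782, where fold enrichment was 7.25, 7.55 and 11.6 with DMSO and 5.03, 3.95 and 3.15 with DHT+ENZ. The log2 difference was -1.05 ± 0.20 (SE, n = 3 per group, limma adjusted p = 0.00719). DHT alone gave 3.68, 5.33 and 3.85, within the range of DHT+ENZ but for 1 value, and ENZ alone gave 7.33, 7.12 and 6.72, near the lower DMSO values. The call was lost without RES-A DMSO replicate 3 (log2 difference -0.87, limma adjusted p = 0.0817).

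The most even decrease was at chr11:119861060-119861354, with 9.40, 9.11 and 9.81 in the DMSO samples and 4.40, 4.74 and 4.83 in the DHT+ENZ samples. Its log2 difference was -0.93 ± 0.16 (SE, n = 3 per group, limma adjusted p = 0.00508). The ENZ samples, at 6.42, 8.03 and 7.0, lay between the groups without overlapping either. At chr14:104333879-104334163 the values were 9.13, 9.55 and 11.4 with DMSO and 6.60, 3.95 and 4.2 with DHT+ENZ, and none of the 12 parental samples had a peak there.

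The remaining regions of this rank were on chromosomes 13 and 8. At chr13:47683263-47683559 the log2 difference was -0.99 ± 0.20 (SE, n = 3 per group, limma adjusted p = 0.0118), and it did not pass without RES-A DHT+ENZ replicate 1 (adjusted p = 0.0522) or RES-A DMSO replicate 2 (adjusted p = 0.0963). At chr8:30328197-30328757 it was -0.97 ± 0.19 (SE, n = 3 per group, limma adjusted p = 0.00897), and it did not pass without RES-A DMSO replicate 2 (adjusted p = 0.0683) or replicate 3 (adjusted p = 0.0501). No DHT sample of RES-A had a peak at the chromosome 8 region, where DMSO gave 6.71, 8.44 and 8.47.

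**Figure D2:**
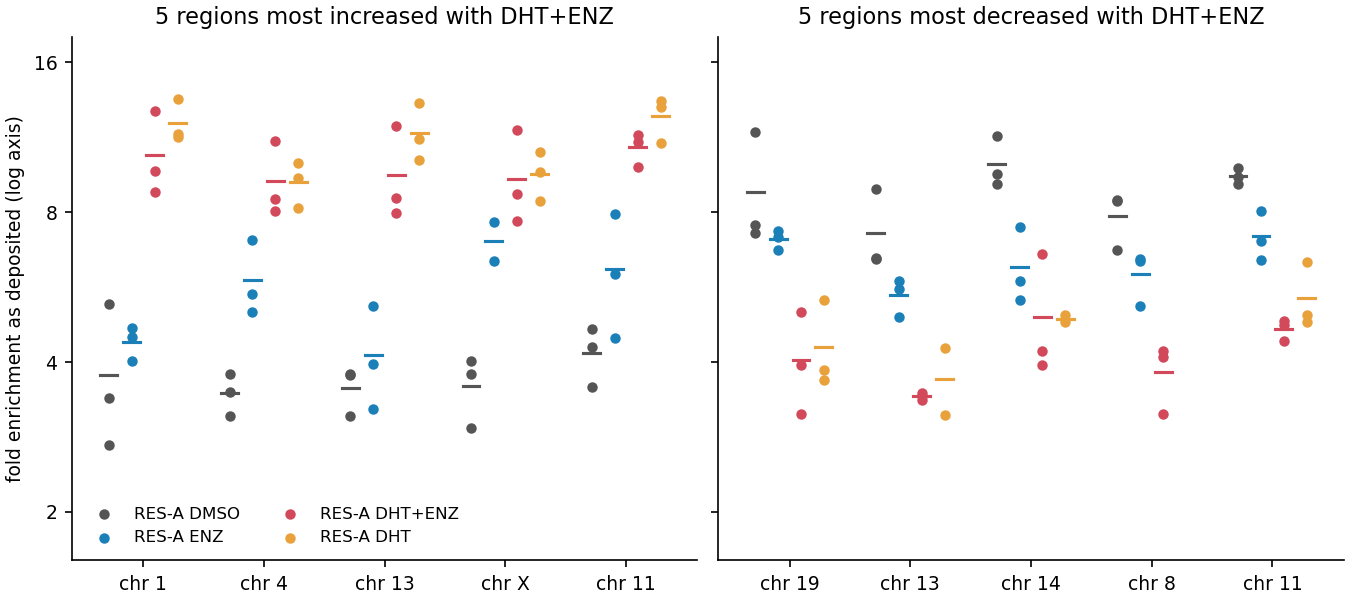
Fold enrichment as deposited (log axis) in each of the 12 RES-A samples at the 5 regions with the largest increase (left) and the 5 with the largest decrease (right), with short lines at the group means over the samples that have a peak. At all 5 increased regions the 3 DHT+ENZ samples lie above the 3 DMSO samples, and at all 5 decreased regions below them, as the choice of the regions requires.

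The increased regions were most frequent among sites of medium level. When the tested regions were ordered by mean level over the 6 samples and cut into 5 equal bins, the increased share was 0.27% in the weakest bin, 0.87%, 1.09% and 1.16% in the next bins and 0.59% in the strongest. The decreased share rose from 0.01% in the weakest bin to 0.17% in the strongest. The increased regions were longer, with a median of 468 bp, than all tested regions (404 bp) and the decreased ones (390 bp). The median length of all regions also increased with level, from 327 bp in the weakest bin to 490 bp in the strongest.

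They were spread over the genome. Among chromosomes the increased share ran from 0.41% on chromosome 19 (11 of 2693 tested regions) to 1.22% on chromosome 18 (34 of 2792). The 914 regions fell in 757 windows of 1 Mb, with at most 4 in any window, and 45 of them (4.9%) lay within 50000 bp of another increased region. None of the 119 decreased regions lay within 50000 bp of another decreased one. Spacing was not measured for equal numbers of other tested regions, so whether it is particular to these regions was not tested.

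The regions called here were next read in the RES-A samples given DHT alone or ENZ alone, which took no part in the calls. To allow for depth, each sample's median log2 fold enrichment over the regions was set against its own median over all tested regions in which it had a peak. At the 914 increased regions this level was 0.70 ± 0.01 with DHT alone and -0.11 ± 0.04 with ENZ alone (SD, n = 3 each). The DHT+ENZ and DMSO samples, which chose the regions, were at 0.52 ± 0.04 and -0.36 ± 0.06. At the 119 decreased regions the level was 0.03 ± 0.07 with DHT alone and 0.32 ± 0.05 with ENZ alone, beside -0.08 ± 0.01 with DHT+ENZ and 0.62 ± 0.05 with DMSO. In both sets every DHT sample lay on the DHT+ENZ side of every ENZ sample.

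**Figure D3:**
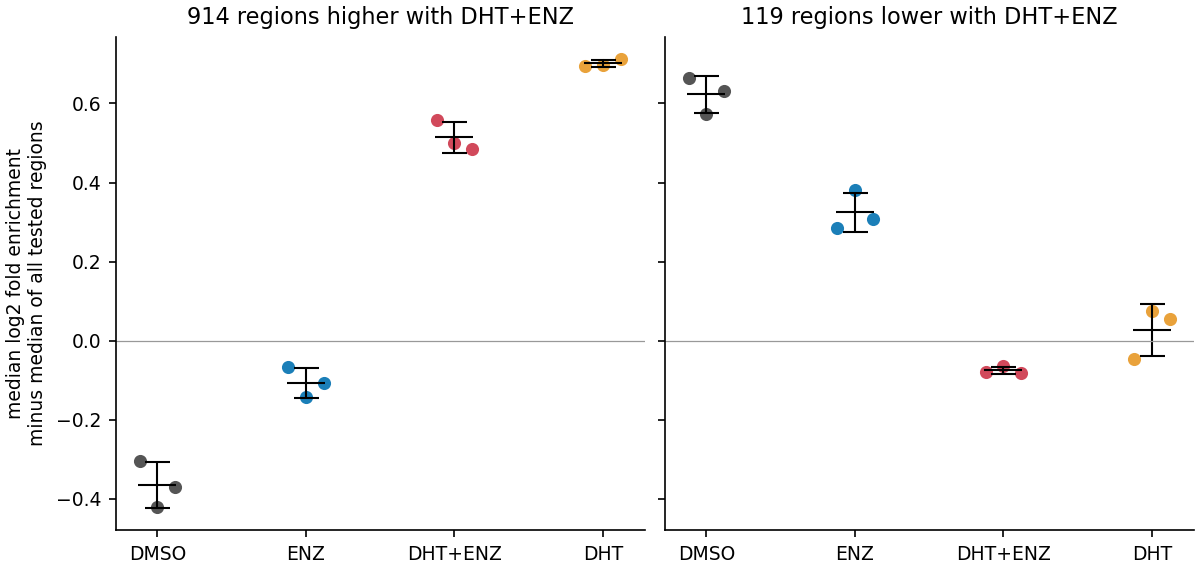
Median log2 fold enrichment of the 914 increased regions (left) and the 119 decreased regions (right) in each RES-A sample, minus that sample's median over all tested regions. Points are samples, and black bars give the mean ± SD (n = 3). The DMSO and DHT+ENZ groups chose the regions, so only the DHT and ENZ levels are independent of the choice.

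Most of the increased regions were also called between DHT alone and ENZ alone, a comparison that shares no sample with the one that chose them. These groups differ by both agents, DHT and ENZ. In a limma fit of those 6 samples, 98010 of the tested regions had a peak in all of them, and 5.4% of these were higher with DHT and 4.57% lower (adjusted p below 0.05). Of the 862 increased regions that could be tested, 718, or 83.3%, were higher with DHT and 4 were lower. Their median log2 difference was 0.79, beside 0.00 over all regions tested. Of the 101 decreased regions that could be tested, 32, or 31.7%, were lower with DHT and 0 were higher, and the median was -0.34. These shares cover only the regions with a peak in all 6 samples, and 52 increased and 18 decreased regions were not among them.

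The same relation was read the other way, from sites that differ between DHT alone and ENZ alone in RES-A to their state under DHT+ENZ. These sites are called DHT-opened and DHT-closed below, although the groups that chose them differ by ENZ as well as by DHT. Of 73318 merged regions of top-ranked peaks of the DHT and ENZ samples, 3554 (4.85%) had a top-ranked peak in 3 of 3 DHT and 0 of 3 ENZ samples, and 2646 (3.61%) the reverse. This list was added after the data had been seen. Among the 3554 DHT-opened regions, 41.7%, 38.2% and 36.2% had a top-ranked peak in the DHT+ENZ samples and 7.20%, 6.39% and 5.57% in the DMSO samples. Over all 73318 regions the groups were alike, at 66.1% to 66.4% with DHT+ENZ and 65.4% to 66.0% with DMSO. The DHT+ENZ samples thus had 32.3 ± 2.1 percentage points more of these regions (pooled SD, n = 3 each) than the DMSO samples, and fewer than the 100% that the choice fixes for DHT alone.

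The 2646 DHT-closed regions showed the opposite. A top-ranked peak was found at 59.7%, 61.3% and 64.9% of them in the DHT+ENZ samples and at 75.6%, 77.2% and 81.2% in the DMSO samples, and the groups did not overlap. The difference was -16.0 ± 2.8 percentage points (pooled SD, n = 3 each).

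In the limma fit the same lists had these differences between DHT+ENZ and DMSO. Of the 2857 tested regions that overlapped a DHT-opened region, 469 (16.4%) were called higher and 1 was called lower, and the median log2 difference was 0.42. Over all 114984 tested regions, 0.795% were higher and 0.103% lower. The 2857 regions held 51.3% of all increased regions. Of the 2656 that overlapped a DHT-closed region, 0 were called higher and 8 (0.30%) lower, with a median of -0.10. A difference above 0 was found at 90.9% of the opened and 29.9% of the closed regions, beside 48.5% of all tested regions.

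When the DHT-responsive sites were chosen against DMSO instead, only the DHT+ENZ and ENZ groups were free of the choice. Of 73787 merged regions, 4145 (5.62%) had a top-ranked peak in 3 of 3 RES-A DHT and 0 of 3 RES-A DMSO samples, and 2510 (3.4%) the reverse. At the opened regions, a top-ranked peak was present at 47.0%, 44.5% and 42.5% in the DHT+ENZ samples and at 14.5%, 10.9% and 14.7% in the ENZ samples, a difference of 31.3 ± 2.2 percentage points (pooled SD, n = 3 each), or 20.3 points when the list was chosen and read on all deposited peaks. At the closed regions the shares were 57.6%, 59.7% and 62.8% with DHT+ENZ and 77.2%, 80.9% and 79.1% with ENZ. Over all 73787 regions they ran from 65.8% to 65.9% with DHT+ENZ and from 65.1% to 66.3% with ENZ. Androgen added to the drug was thus accompanied by a top-ranked peak at more of the DHT-opened and fewer of the DHT-closed sites than the drug alone, in 3 of 3 samples against 3.

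DHT+ENZ also lay on the DHT side of DMSO at sites defined in parental LNCaP, the line from which RES-A derives. These were 1811 regions (2.15% of 84147) with a top-ranked peak in 3 of 3 parental DHT and 0 of 3 parental DMSO samples, and 1456 regions (1.73%) with the reverse. No RES-A sample took part in this choice. The choice rests on rank. A limma fit of parental DHT against parental DMSO called 0 regions higher and 0 lower (adjusted p below 0.05). It covered the 46889 tested regions with a peak in all of these parental samples. The parental DHT lists were uneven, with 82224, 275774 and 212064 peaks. Of the regions increased with DHT+ENZ in RES-A, 737 were in that fit. Of these, 685 (92.9%) lay above 0, with a median log2 difference of 0.31, beside 49.9% of all 46889. Of the 20 decreased regions in it, 1 lay above 0. At the 1811 opened regions the RES-A DMSO samples had a top-ranked peak at 7.73%, 6.79% and 7.18%, and the RES-A DHT+ENZ samples at 17.1%, 17.2% and 16.8%. ENZ alone gave 9.17%, 7.90% and 8.06%, and DHT alone 40.9%, 39.3% and 38.3%. The RES-A DHT+ENZ group stood above both RES-A groups without androgen and below DHT alone, with no overlap, and exceeded DMSO by 9.79 ± 0.36 percentage points (pooled SD, n = 3 each). The size depended on how the list was chosen, with 0.82 points when all deposited peaks were used to choose it and 7.24 when they were also used to read it.

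The 1456 regions closed by DHT in parental cells had a top-ranked peak at 65.9%, 66.2% and 67.6% in the RES-A DMSO samples, 58.5%, 57.5% and 58.6% in the RES-A DHT+ENZ samples, 61.6%, 66.3% and 65.2% in the ENZ samples and 42.8%, 43.6% and 46.8% in the DHT samples. The DHT+ENZ mean minus the DMSO mean was -8.38 points, or -3.39 and -5.41 under the same 2 alternatives, and DHT+ENZ lay again between the groups without androgen and DHT alone. Over all 84147 regions the shares were 47.2% to 47.8% with DMSO and 48.0% to 48.8% with DHT+ENZ.

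**Figure D4:**
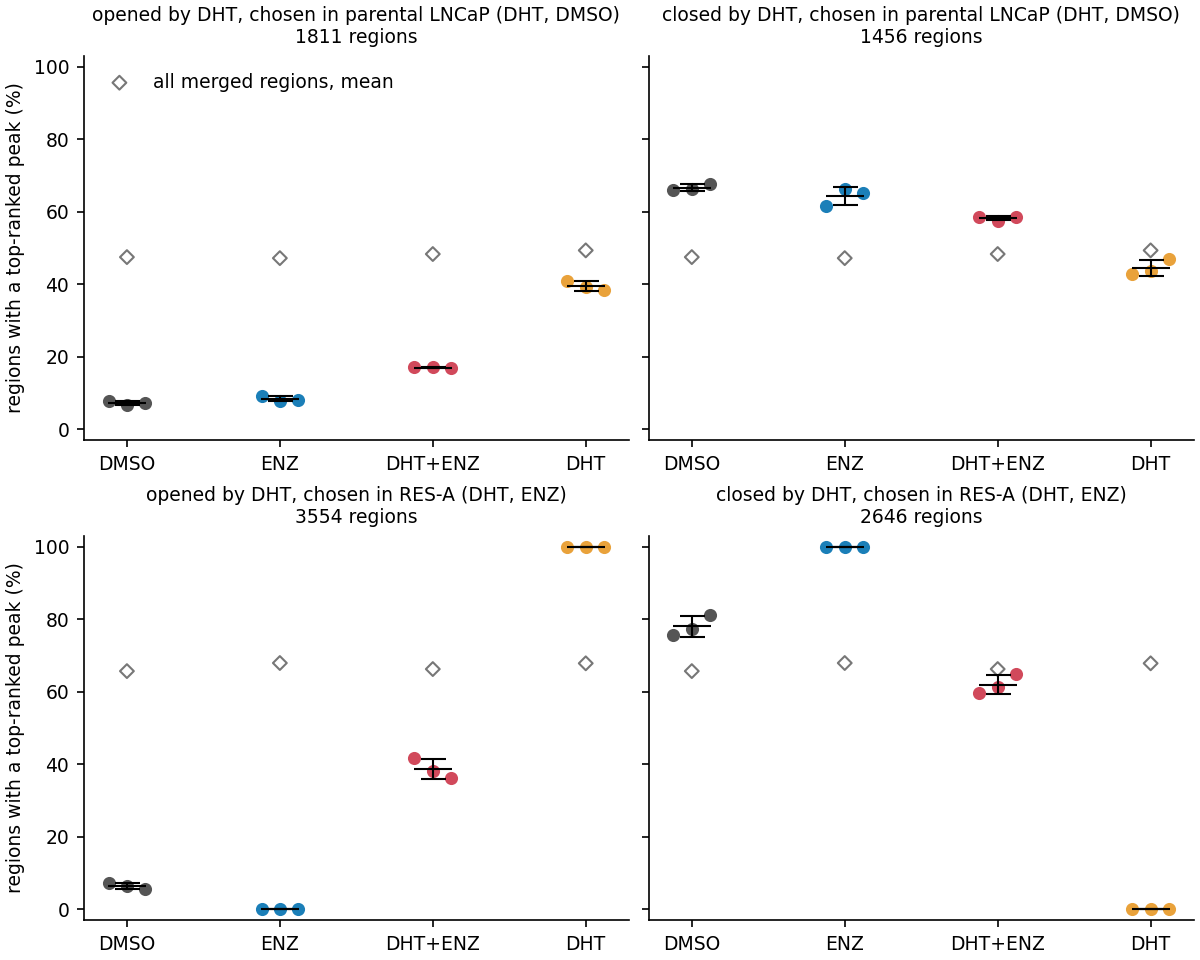
Percent of regions with a top-ranked peak in each RES-A sample, for regions opened (left) or closed (right) with DHT, chosen in parental LNCaP (top) or between RES-A DHT and RES-A ENZ (bottom). Points are samples, black bars the mean ± SD (n = 3) and diamonds the mean over all merged regions. In the lower panels the 0% and 100% of ENZ and DHT are fixed by the choice, so DHT+ENZ could not lie beyond DHT there. In all panels DHT+ENZ lies on the DHT side of DMSO. In the upper panels, where no RES-A sample took part in the choice, it also lies short of DHT.

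Region by region, 85 of the 1811 parental DHT-opened regions (4.69%) had a top-ranked peak in 3 of 3 RES-A DHT+ENZ and 0 of 3 RES-A DMSO samples, and 2 (0.11%) had the reverse. Over all 84147 regions these shares were 1.24% and 0.41%. Among the 1456 closed regions, 2 (0.14%) went up and 20 (1.37%) went down by the same rule. In the limma fit, 77 of the 680 tested regions that overlapped a parental DHT-opened region (11.3%) were called higher and 0 lower, with a median log2 difference of 0.30. Over all 114984 tested regions these shares were 0.795% and 0.103%. The 77 regions were 8.4% of all increased regions. Of the 1338 tested regions that overlapped a closed one, 0 were higher and 6 (0.45%) lower, with a median of -0.09.

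The parental samples given DHT+ENZ had a top-ranked peak at 38.4%, 22.1% and 24.96% of the 1811 parental DHT-opened regions, beside 11.5%, 7.45% and 9.61% with ENZ alone. All 3 lay above the RES-A DHT+ENZ samples, but the regions were chosen in parental cells, so the sublines are not on an equal footing here. Replicate 1 of parental ENZ had 73254 peaks and the lowest background of the series, 0.41 reads per base, so its top-ranked peaks take in most of its list. Replicate 1 of parental DHT, on which the list partly rests, had the low background of 0.74 reads per base. Chosen without it, the list had 3182 regions, and the RES-A difference between DHT+ENZ and DMSO was 8.06 points.

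Whether the effect of DHT+ENZ against DMSO differs between the sublines was tested at the 75926 regions with a peak in all 12 samples of both sublines. Only RES-A was kept in ENZ before treatment, so subline and earlier drug exposure cannot be told apart here. No region passed an adjusted p of 0.05 for the interaction (0 larger and 0 smaller in RES-A by limma, with 4630 regions at an unadjusted p below 0.05). The smallest adjusted p was 0.0872, and with median centring in place of quantile normalisation 9 regions passed, all larger in RES-A. A limma fit of parental DHT+ENZ against parental DMSO called 0 of the 75926 regions higher and 0 lower (adjusted p below 0.05). At the 774 regions of the 914 that could be tested, the median log2 difference was 0.75 in RES-A, which chose them, and 0.14 in parental LNCaP, where 81.8% were above 0, beside 50.8% of all regions tested. The region on chromosome 11 with a RES-A difference of 1.34 in this fit had a parental difference of -0.09. Its interaction was 1.43 on the log2 scale (limma adjusted p = 0.0872), and the test gave the same adjusted p for the region on the X chromosome.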

How the data were processed

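Groups were taken from the labels. Single-end reads of 50 bp were aligned by the authors to hg19 with BWA 0.7.8-r455, with duplicates marked by Picard 1.118 and peaks called per sample by MACS2 2.1.0, per the labels and the study's methods. The caller's options and any control sample were not given in the sources used here. The deposited lists give pileup (a signal), fold enrichment (a ratio), and −log10 p and −log10 q values per peak, and no read totals. No −log10 q lay under 1.3.

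Peaks off the 24 chromosomes (0.353% to 0.525% of a list) were left out. Lists were merged at an overlap of 1 bp. The value of a region was the highest deposited fold enrichment of a sample's peaks in it, taken as log2 and quantile normalised. Fits used limma 3.58.1 in R 4.3.3 (lmFit, eBayes with trend, Benjamini-Hochberg over all regions tested), and other steps Python 3.11.15. Background was the smallest (pileup + 1) / fold − 1 of a list, which assumes that the caller adds 1 to both terms. Regions named in the text are the 5 in each direction with the largest log2 difference past the threshold whose deposited and normalised values did not overlap between the groups, and opened or closed regions without any peak in the other group, of which there was 1. The scripts were tested on simulated data. The members, lists and thresholds were chosen with earlier results of these data known. Alternatives covered ranking, normalisation, filters, samples left out and the replicate block. The reference at hand was of another build (GRCh38), so gene lists, markers, motifs and sequences were not analysed here.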

Additional observations from a re-analysis of the deposited data

How the results depend on the processing

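The difference in peak number turned to 4940.1 peaks with log2 background as a covariate and ran from -11082.2 to 5070.8 with 1 sample left out, with 1145.3 and 754.7 among the turned values. With 25000 top-ranked peaks 749 regions opened and 388 closed, 946 closed with 100000 and 1884 with all deposited peaks. Without a peak of any rank in the other group, 1 opened and 0 closed. With 1 sample left out, 1651 to 1918 opened and 1122 to 1246 closed, a rule that asks for fewer samples. Regions called by limma numbered 113 higher and 14 lower without normalisation, 3023 and 509 on pileup, 2285 and 336 on −log10 p, 298 and 10 at an adjusted p below 0.01, and 0 and 0 (17804 at an unadjusted p below 0.05) with missing peaks at the lowest fold enrichment. With 1 sample left out they ranged from 356 to 643 and from 22 to 84. The interaction gave 9 regions larger in RES-A with median centring. For the parental list, the opened difference was 0.82 points when chosen on all deposited peaks, 7.24 when also read on them, 8.06 without LNCaP DHT replicate 1 and 7.33 when chosen on LNCaP DHT+ENZ, and the closed difference was -3.39 and -5.41 for the first 2 of these. The RES-A opened lists gave 20.31 points against ENZ on all deposited peaks and 29.12 against DMSO on 100000. The causes were not tested. The list differences kept their direction in all of these.

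Replicate numbers did not pair the samples (correlations of deviations 0.017, 0.017 and -0.019). With the replicate block, 867 regions were higher and 113 lower, the interaction gave 0 and 0 (5186 at an unadjusted limma p below 0.05), the peak difference stayed at -1622 (exact p = 1) and the Jaccard difference at 0.0328 (exact p = 0.25, the smallest possible). Of 169 other fits of the 10 named regions, 154 kept the call, 15 lost it and 0 turned. Alternatives for gene lists and motifs were not run. Read totals were unknown, and a missing peak gives no level. The median SE of the log2 difference was 0.187 in the weakest of the 5 level bins and 0.118 in the strongest.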
